A study of Homo sapiens with 8 samples.

Results

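The 17q22-q24 segment was defined by position as chromosome 17 from 50 to 70 Mb (GRCh38). It held 815 of the 25365 ER sites found in LY2 cells, and the rest of chromosome 17 held 413. LY2 is an endocrine-resistant, ER+ breast cancer line derived from MCF7. Cells were transfected for 48 hours with a control siRNA (siCtrl) or an siRNA against CDK12 (siCDK12), a transcriptional kinase. Before transfection, serum was depleted for 24 hours in media free of 4-OHT (4-hydroxytamoxifen). After transfection all cells received 1 µmol/L estradiol for 1 hour, followed by ER chromatin immunoprecipitation and sequencing (ChIP-seq). The lists of 4 ER libraries were used, siCtrl replicates 2 and 3 and siCDK12 replicates 3 and 4, all from 1 cell line. The input libraries of both conditions were not analysed here. The lists carry no measure of CDK12 itself, so the knockdown could not be checked in them. The labels do not say whether replicates were separate cultures, so p-values measure only the spread between these libraries.

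A peak was used when its q-value, the significance adjusted for all positions, was under 0.05. Overlapping peaks (1 bp or more) from any of the libraries formed 1 site, and the summit of the most significant peak gave its position. The fold enrichment of a peak is its pileup (the number of ER ChIP fragments that cover the summit) over its local background, each with 1 added. The local background is the number of fragments the peak caller predicted at that summit without enrichment. Each library had a floor of the background, between 1.01 and 1.23 fragments. That floor is the lowest background that 50 or more peaks of a library had in common, and backgrounds are given as multiples of it.

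ER is a ligand-activated transcription factor. As a dimer it binds estrogen response elements, inverted repeats of a short half-site separated by 3 bases, and it is also recruited through other factors such as AP-1. The 17q22-q24 region is recurrently amplified in breast cancer and in MCF7 cells, and it carries RPS6KB1, PPM1D, BCAS3, TRIM37 and BRIP1. In ChIP-seq, extra copies of a region add reads whether or not ER is bound, and the peak caller compares each pileup with the background nearby for that reason.

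The sequences below are the elements of the 4 segment sites that had an element and a peak in more than 1 library. They are shown because the pileup or the presence of all 4 moved down with siCDK12. Each is on the plus strand of GRCh38, with the 13 bases of the element in capitals and 20 bases on either side.

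TEX14 intron 2, chr17:58639806-58639858, peak in all 4 libraries: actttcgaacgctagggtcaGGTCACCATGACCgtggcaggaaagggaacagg
TBC1D3P1-DHX40P1 intron 1, chr17:60018910-60018962, lost: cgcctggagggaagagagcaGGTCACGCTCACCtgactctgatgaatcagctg
RGS9 intron 12, chr17:65194837-65194889, lost: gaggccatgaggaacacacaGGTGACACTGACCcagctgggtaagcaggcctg
31.1 kb upstream of CACNG4, chr17:66933569-66933621, lost: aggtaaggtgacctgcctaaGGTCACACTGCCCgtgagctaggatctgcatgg

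The element of the TEX14 site had no mismatch to the palindrome GGTCA, 3 bases of any kind, TGACC. The elements of the other 3 sites had 1 mismatch each. The flank printed for TBC1D3P1-DHX40P1 also held an AP-1 motif (TGANTCA), left in lower case. The centre of each element lay within 11 bp of the summit.

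Further windows of 101 bases, each centred on its summit, show strong or persistent sites with no element inside the window. The capitals mark an AP-1 motif (TGANTCA, either strand), and a window in lower case held none of the motifs searched.

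76.6 kb upstream of TOB1, chr17:50944481-50944581, in 3 libraries: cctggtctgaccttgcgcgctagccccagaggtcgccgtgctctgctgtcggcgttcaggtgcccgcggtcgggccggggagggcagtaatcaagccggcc
143 kb downstream of the RGS9 start, chr17:65243840-65243940, lost: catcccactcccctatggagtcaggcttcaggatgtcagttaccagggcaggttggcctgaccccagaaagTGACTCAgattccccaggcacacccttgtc
2.405 kb upstream of NACA2, chr17:61593574-61593674, in all 4 libraries: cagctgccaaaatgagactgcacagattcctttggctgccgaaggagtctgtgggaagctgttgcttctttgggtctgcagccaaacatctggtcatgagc

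ER peaks were denser in the segment than on the rest of the chromosome in every library. The siCtrl libraries held 385 and 235 segment peaks against 207 and 93 on the rest of chromosome 17. The siCDK12 libraries held 220 and 241 segment peaks against 68 and 87. Densities per Mb were 19.3 and 11.8 for siCtrl and 11.0 and 12.1 for siCDK12, against 3.27, 1.47, 1.07 and 1.38 on the rest. The ratio of the densities was 5.88 and 7.99 for siCtrl and 10.2 and 8.76 for siCDK12. The mean over libraries was 3.01 ± 0.34 on the log2 scale (SD, n = 4), an 8.06-fold higher density (two-sided exact sign-flip permutation test, p = 0.125). That p is the smallest 4 libraries can give, so no such test here can reach 0.05. Against all other chromosomes the mean log2 ratio was 2.76.

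**Figure D1:**
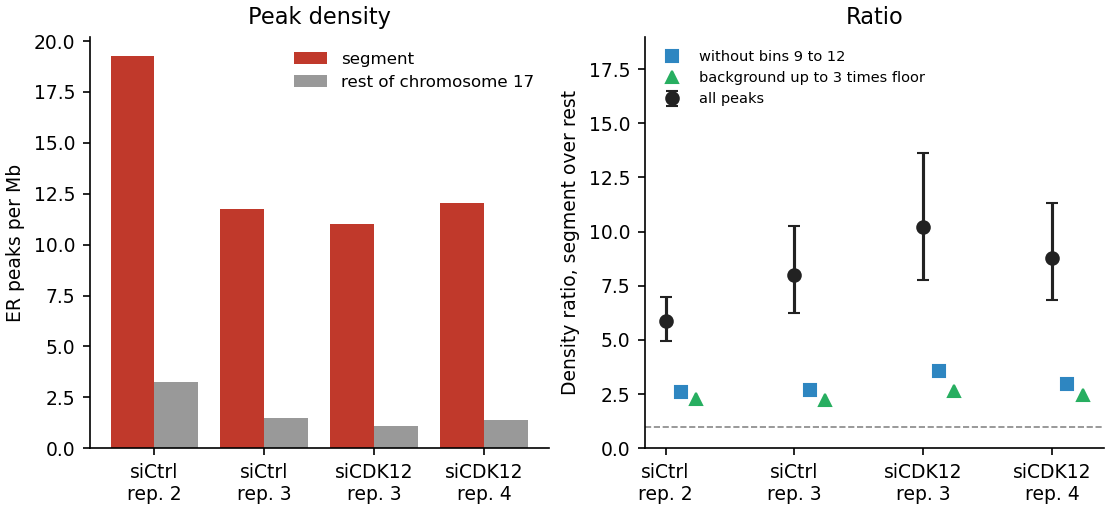
Left, ER peaks per Mb in the segment and on the rest of chromosome 17 in each library. Right, the ratio of these densities with exact 95% intervals that cover counting error only (circles), without bins 9 to 12 of the segment, 58 to 62 Mb (squares), and for peaks with a background of at most 3 times the floor (triangles). All 4 libraries lay above a ratio of 1 in each form, and the ratio was smaller in both restricted forms.

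The segment held 65.03% and 71.6% of the chromosome 17 peaks in siCtrl and 76.4% and 73.5% in siCDK12. Exact 95% intervals were 61.0 to 68.9 and 66.4 to 76.5 in siCtrl, and 71.1 to 81.2 and 68.3 to 78.2 in siCDK12. Both siCDK12 shares lay above both siCtrl shares, by 6.59 percentage points on average (two-sided exact permutation test, p = 0.333, the smallest 2 libraries per condition allow). The difference was 3.29 points without siCtrl replicate 2 and 9.90 without siCtrl replicate 3, and 16.7 and 20.4 points at a -log10 q of 3 or more and of 5 or more. Among peaks with a fold of at least 5, the difference was -2.00 points (exact permutation test, p = 1).

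The local background of segment peaks was also higher. Its median was 9.02 and 11.1 times the floor in siCtrl and 11.8 and 10.4 times in siCDK12. On the rest of chromosome 17 it was 1.06 and 1.29 times in siCtrl and 1.16 and 1.12 times in siCDK12. The ratio of segment to rest was 8.54, 8.63, 10.2 and 9.20 in the order above, with a mean log2 of 3.19 ± 0.12 (SD, n = 4; two-sided exact sign-flip permutation test, p = 0.125). The siCDK12 libraries exceeded the siCtrl libraries in this log2 ratio by 0.17 (exact permutation test, p = 0.333). A background above 3 times the floor was found at 62.9%, 74.5%, 75.0% and 71.8% of segment peaks. The same was true of 2.90%, 8.60% and 2.94% of the other chromosome 17 peaks in siCtrl replicates 2 and 3 and siCDK12 replicate 3, and of 0 of 87 in siCDK12 replicate 4. The background was not converted to a copy number.

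The raised background did not cover the whole segment. Of its 20 bins of 1 Mb, 5 had a median background above 3 times the floor in all 4 libraries, bins 9 to 12 (58 to 62 Mb) and bin 15 (64 to 65 Mb). Another 12 bins were at or below 3 times the floor in every library with a peak, and 3 bins were mixed. Bin 12 was highest, at 23.4 and 23.1 times the floor in siCtrl and 23.6 and 24.6 times in siCDK12. Bin 11 was at 9.92, 9.70, 10.2 and 9.07 times, and bin 10 at 8.15, 9.20, 8.66 and 8.70 times. In bins 10 to 12 the siCDK12 libraries were therefore close to the siCtrl libraries. Bin 15 was at 6.56 and 6.27 times with siCtrl and 11.5 and 13.5 times with siCDK12, from 5 to 10 peaks a library. Its stretch from 64.3 to 64.4 Mb alone was at 11.7 and 11.6 times with siCtrl and 13.2 and 13.8 times with siCDK12. The siCDK12 libraries were thus higher in both forms, but by less in that stretch. Bin 9 was at 5.02, 5.86, 4.91 and 8.11 times.

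At 100 kb resolution the background changed in steps and did not only rise along the band. From 58.6 to 59.1 Mb the mean over libraries was between 5.66 and 10.2 times the floor. Between that stretch and the next, the 7 sites at VMP1 had a median of 2.71 times. From 60 to 60.8 Mb, across HEATR6, USP32, APPBP2, PPM1D and the start of BCAS3, the mean over libraries stayed between 9.13 and 10.3 times the floor. From 61.2 to 61.4 Mb, in the end of BCAS3, it was 19.7 and 19.8 times. From 61.4 to 61.9 Mb, from TBX2 and TBX4 through NACA2 and BRIP1 to INTS2, it was between 23.6 and 25.5 times. A separate step of 12.5 times the floor lay at 64.3 to 64.4 Mb, where 10 sites fell within PECAM1, an adhesion molecule of endothelial cells and platelets. Only peaks give a background, so bins of 100 kb with few peaks have no value.

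**Figure D2:**
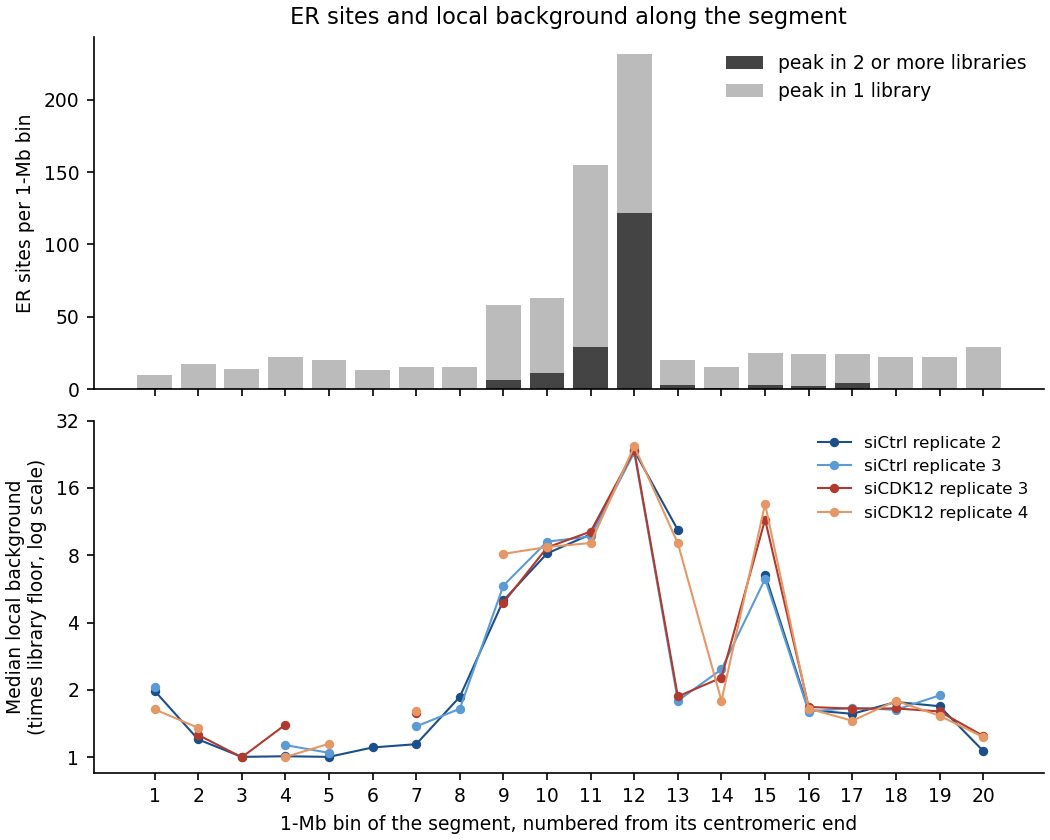
Upper panel, ER sites per 1-Mb bin of the segment, with sites that had a peak in 2 or more libraries in dark grey. Lower panel, the median local background of the peaks in each bin and library, on a log scale, for bins with 3 or more peaks. Bin 12 had 232 sites and a background of 23.1 to 24.6 times the floor in the 4 libraries.

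Site counts were highest in bins 9 to 12 but did not follow the background in every bin. Bin 15, with a raised background, had 25 sites, and bin 16, without it, had 24. Bins 9 to 12 held 508 of the 815 sites, or 62.3%, at 127 sites per Mb, and the remaining 16 Mb held 307 sites at 19.2 per Mb. This band was singled out after the sites had been counted. Bin 12 alone had 232 sites, bin 11 had 155, and the other 18 bins had between 10 and 63. Without the band, the density ratio over the rest of the chromosome was 2.60 and 2.68 for siCtrl and 3.55 and 2.95 for siCDK12. Among peaks with a background of at most 3 times the floor it was 2.25, 2.23, 2.64 and 2.47. Restricted to folds of 5 or more, the mean log2 density ratio was 0.69. The segment therefore stayed denser in all 3 restricted forms, by a smaller factor.

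Segment peaks stood on tall pileups but had small fold enrichments. The siCtrl libraries had median pileups of 29 and 38 fragments and the siCDK12 libraries 38 and 36, against 8, 10, 10 and 9 on the rest of the chromosome. The median fold was 3.06 and 2.63 with siCtrl and 2.63 and 2.70 with siCDK12, against 4.40, 4.55, 4.42 and 4.14. The mean log2 ratio of the median folds was -0.67 ± 0.12 (SD, n = 4; two-sided exact sign-flip permutation test, p = 0.125). Only 9.09%, 4.26%, 2.27% and 2.07% of segment peaks reached a fold of 5, and on the rest of the chromosome 22.2%, 29.0%, 11.8% and 14.9% did. Where the background was at most 3 times the floor, the median folds of segment peaks (4.25, 4.07, 4.13 and 4.05) were close to those of the rest (4.36, 4.47, 4.42 and 4.14). By construction, the lowest fold that passes the q-value falls as the background rises.

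**Figure D3:**
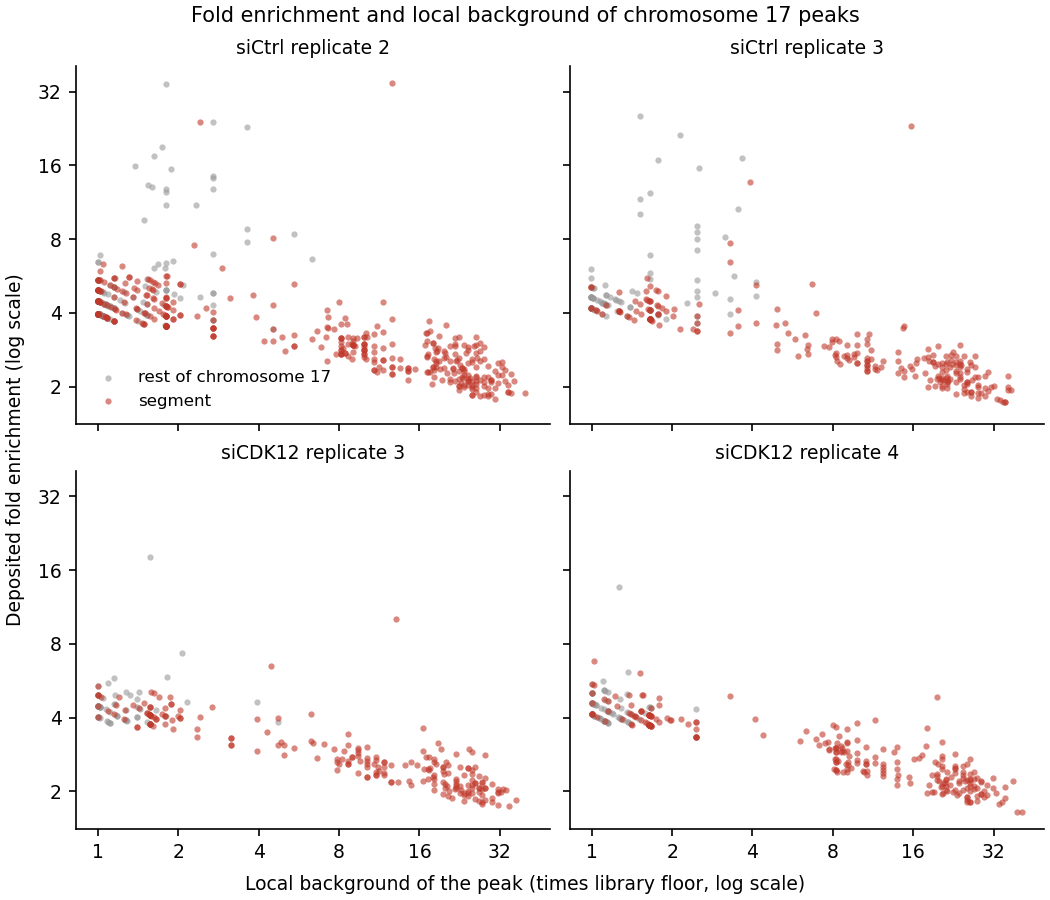
Deposited fold enrichment against local background, both on log scales, for each ER peak of chromosome 17 in the 4 libraries. Segment peaks (red) formed clouds near 1 to 2, 8 to 12 and 16 to 32 times the floor with folds that fell from near 4 to near 2 across them, and the TEX14 peak stood far above its cloud in siCtrl.

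The strongest site of the segment lay in intron 2 of TEX14, a gene known for its role in germ cells, at chr17:58639694-58639993. It is the site with the element that has no mismatch. It had pileups of 478 and 441 fragments with siCtrl and 172 and 116 with siCDK12, and its fold was 34.8 and 23.1 against 10.1 and 4.84. Both siCDK12 libraries lay below both siCtrl libraries in pileup and in fold. Its -log10 q was 544 and 422 with siCtrl and 102 and 35.6 with siCDK12. The local background was 15.3 times the floor, so an extreme fold stood on a raised background.

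A site in exon 1 of the long noncoding RNA ENSG00000247011, 182 bp from its start and 76.6 kb upstream of TOB1, an antiproliferative gene, moved the same way. It lay at chr17:50944366-50944802, with pileups of 82 and 75 fragments in siCtrl and 35 in siCDK12 replicate 3. The folds were 24.1, 13.7 and 4.13. In siCDK12 replicate 4 a peak was deposited there, but its q-value did not pass 0.05. These sites, the lost sites at RGS9 and the one near CYB561 were the 5 segment sites with a fold of at least 5 in both siCtrl libraries. Of those 5, 3 were lost and 2 had an element.

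Presence of a peak was then compared between conditions. Lost sites are those found in each siCtrl library but not in siCDK12, and gained sites are those found in each siCDK12 library but not in siCtrl. The segment held 30 lost sites, 3.68% of its sites (exact 95% interval 2.50 to 5.21), against 1.79% of all 25365 sites and 4.36% on the rest of chromosome 17. It held 12 gained sites, 1.47% (0.763 to 2.56), against 0.343% of all sites and 0 of 413 on the rest of the chromosome, where a count of 0 allows up to 0.726% (3 counts of 413). Sites with a peak in all 4 libraries numbered 13, 1.60% (0.852 to 2.71), against 0.26% of all sites and 1 on the rest of chromosome 17. These intervals cover counting error only, and the lists give no counts to test single sites.

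The background of a site is the mean over its peaks. All 30 lost, 12 gained and 13 all-library sites had a background above 3 times the floor, and 26, 12 and 13 of them lay in bins 9 to 12. The lost site in RGS9 intron 12 was close to this limit, at 2.92 and 3.29 times in siCtrl. Among segment sites with a background of at most 3 times the floor, 0 of 320 were lost or gained. That count allows up to 0.938% (3 counts of 320). Among all sites of the genome with a background above 3 times the floor, 6.29% were lost, 1.59% gained and 1.48% present in all libraries. For the 495 segment sites of that kind the shares were 6.06%, 2.42% and 2.63%, and for the 2206 outside the segment 6.35%, 1.41% and 1.22%. These backgrounds differed, with medians of 14.4 times the floor in the segment and 8.35 times outside. At this limit the lost shares were close, and the gained and all-library shares were higher in the segment, a difference that was not tested.

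**Figure D4:**
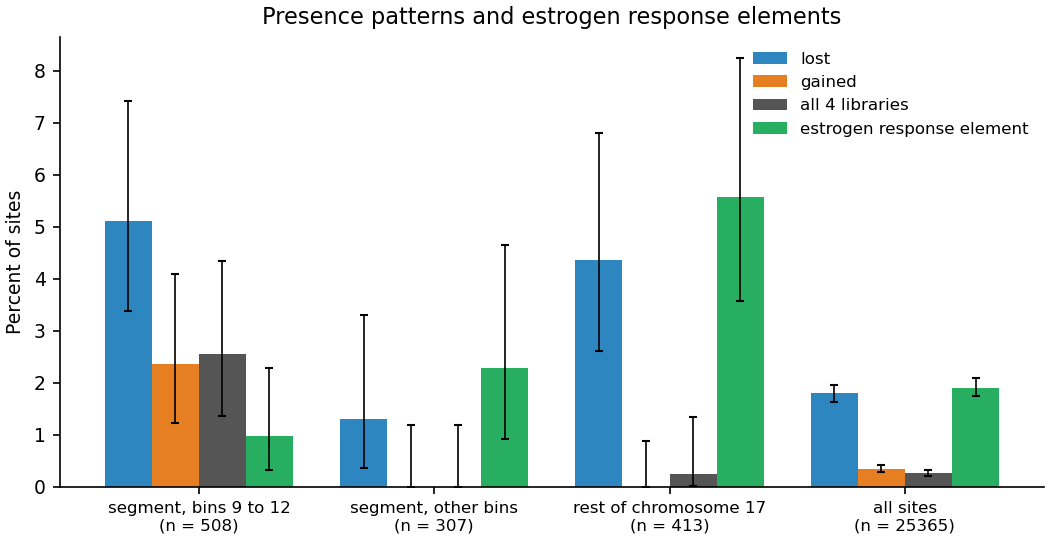
Percent of sites that were lost, gained, present in all 4 libraries or within 100 bp of an estrogen response element, for bins 9 to 12 of the segment, its other bins, the rest of chromosome 17 and all sites. Bars carry exact 95% intervals that cover counting error only; gained sites were 2.36% in bins 9 to 12 and 0 in the other bins.

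Sites in the segment recurred between libraries, within a condition and across conditions. Both siCtrl libraries shared 75 sites of the segment, and both siCDK12 libraries shared 49 sites of the segment. Of its 815 sites, 183 (22.5%) had a peak in 2 or more libraries, against 7.26% on the rest of the chromosome and 5.15% of all sites. In bin 12 this was 122 of 232 sites, or 52.6%. Without bins 9 to 12 it was 4.89%. Exactly 1 siCtrl and 1 siCDK12 library shared 72 segment sites, or 8.83%, against 1 of 413 on the rest of the chromosome. Of the sites outside the segment with a background above 3 times the floor, 8.61% were of that kind, and 13.7% of those in the segment. At a -log10 q of 3 or more, the excess of recurrent sites over the rest of chromosome 17 turned from 15.2 to -13.7 percentage points.

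Of the 75 segment sites present in both siCtrl libraries, 30 were lost, 13 were present in both siCDK12 libraries and 32 in 1 of them. The lost share of 40.0% (exact 95% interval 28.9 to 52.0) compares with 425 of 592 sites, or 71.8% (68.0 to 75.4), outside the segment. Outside the segment with a background above 3 times the floor it was 61.4% (54.8 to 67.8). On the rest of chromosome 17 it was 18 of 29 sites, or 62.1% (42.3 to 79.3), an interval that overlaps the segment's. Of those 29 sites, 5 had a background above 3 times the floor, and 2 of these were lost. Within the segment, 26 of 68 sites in 58 to 62 Mb were lost, or 38.2% (26.7 to 50.8). Elsewhere in the segment it was 4 of 7, or 57.1% (18.4 to 90.1), too few sites to tell the parts apart. A peak was found again at 41.3% of the 75 sites in siCDK12 replicate 3 and at 36.0% in replicate 4, against 20.3% and 16.9% of the 592 sites outside. The 75 sites had weaker siCtrl peaks, with a median fold of 2.55 against 6.02 outside, and 6.67% of them reached a fold of 5 in both siCtrl libraries against 46.6%. The part of that difference in the shares of lost sites was not tested.

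The 13 all-library sites allow pileups to be set side by side, without normalization between libraries. Besides the TEX14 site they comprised 12 sites within 61.52 to 61.84 Mb, of which 8 lay in introns of BRIP1. The others lay between genes, 2.405, 30.5 and 41.2 kb from the start of NACA2 and 69.2 kb from that of TBX4. Pileups of the 12 sites were between 53 and 100 fragments and their folds between 1.65 and 3.64 over all 4 libraries. The ratio of the mean siCDK12 to the mean siCtrl pileup was between 0.908 and 1.32 for the 12, with a median of 1.08. Both siCDK12 pileups were below both siCtrl pileups at 3 of the 12 and above at 4, so the groups overlapped at the other 5. At the TEX14 site the ratio was 0.313.

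Outside the segment, 43 of 53 all-library sites had both siCDK12 pileups below both siCtrl pileups and 2 had both above. Over all 66 such sites 71.2% were below and 9.09% above. The segment had 4 of 13 below and 4 above. The median pileup ratio was 1.08 in the segment and 0.368 outside. For the fold the median ratio was 0.937 in the segment and 0.370 outside, and for the local background 1.21 and 1.09. Among the 27 outside sites with a background above 3 times the floor, the median ratio was 0.384, with 18 below and 2 above. Among the 10 outside sites with a background above 10 times the floor, the median ratio was 1.03, with 1 site below and 2 above, a limit chosen after the values were seen. Among the 26 outside sites at or under 3 times the floor, the median ratio was 0.355 and 25 were below.

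**Figure D5:**
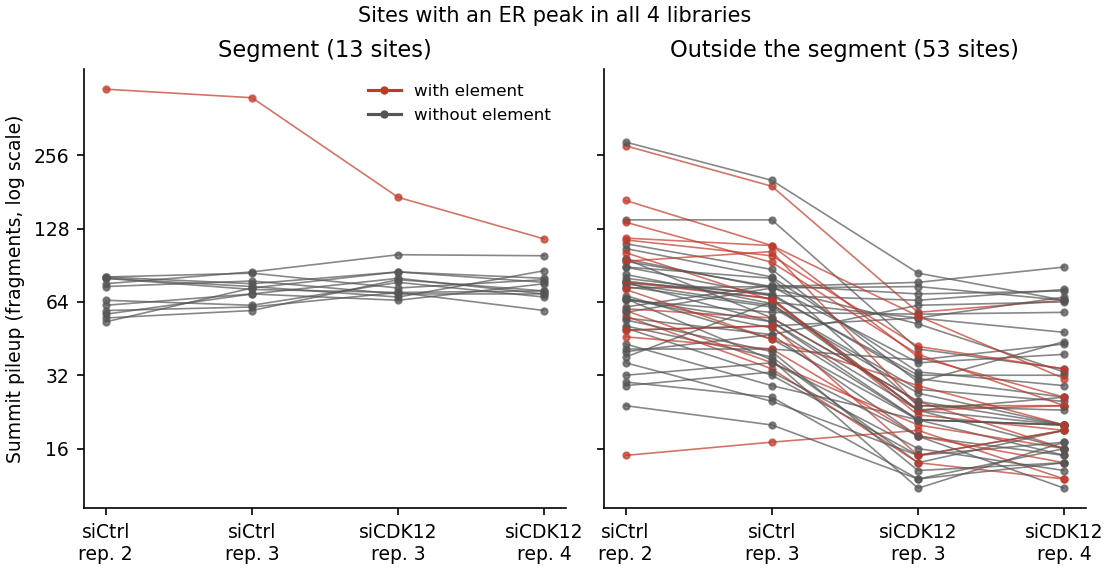
Summit pileup in fragments, on a log scale, in the 4 libraries for each site with an ER peak in all of them, in the segment (left) and outside it (right), with red lines for sites with an estrogen response element. The 12 segment sites without an element stayed between 53 and 100 fragments, and the TEX14 site fell from 478 and 441 to 172 and 116.

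Single examples show the range of these sites. At the site 2.405 kb upstream of NACA2, a relative of a ribosome-associated chaperone subunit, the siCtrl pileups were 80 and 74 fragments and the siCDK12 pileups 67 and 86, so the groups overlapped. At a site in an intron of BRIP1, a helicase of the BRCA1 repair pathway, chr17:61745357-61745699, they were 76 and 85 against 100 and 99, so siCDK12 was higher there.

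The strongest lost site lay between genes at chr17:65243777-65244007, 143 kb downstream of the start of RGS9, a regulator of G protein signaling. Its folds were 8.10 and 7.67 in siCtrl, and neither siCDK12 list had a peak overlapping it, even above the q-value limit. A lost site with an element in RGS9 intron 12, chr17:65194737-65194937, had folds of 6.07 and 6.43. The site 6.92 kb upstream of CYB561, at chr17:63453114-63453380, had folds of 5.26 and 5.19. These 3 lay outside bins 9 to 12, with backgrounds of 3.1 to 4.8 times the floor. The lost element site in TBC1D3P1-DHX40P1, a transcribed pseudogene pair, had folds of 4.44 and 5.26, and the one near CACNG4, a calcium channel subunit gene, had 4.74 and 4.12.

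The 26 lost sites inside the band had siCtrl folds between 1.85 and 5.26, and the 4 elsewhere in the segment between 4.12 and 8.10, so the ranges overlapped. At BRIP1 intron 6, chr17:61838260-61838500, the folds were 3.72 and 2.84, and at BCAS3 intron 22, chr17:61212248-61212419, they were 2.80 and 3.45. Of the 30 lost sites, 10 had a -log10 q of at least 5 in both siCtrl libraries. At 2 of the 30 a peak had been deposited in a siCDK12 library without passing the q-value.

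The 12 gained sites had siCDK12 folds between 1.85 and 6.49, and 0 of them had an element. The gained site with the highest -log10 q, 16.2, lay in intron 1 of PPM1E, a protein phosphatase gene, at chr17:58816869-58817153. Its folds were 6.49 and 3.00, with pileups of 41 and 31 fragments. At INTS2 intron 8, chr17:61905345-61905634, the folds were 2.43 and 2.58. Of the 12 gained sites, 0 had a -log10 q of at least 5 in both siCDK12 libraries, and the siCtrl lists had no peak overlapping them at any q-value.

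Estrogen response elements were sparse. Allowing 1 mismatch among the 10 fixed bases, on either strand, 12 of 815 summits had an element within 100 bp, or 1.47% (exact 95% interval 0.763 to 2.56). On the rest of chromosome 17 it was 23 of 413, or 5.57% (3.56 to 8.24), and over all sites 1.91%. Windows of the same length 1000 bp downstream of the segment summits held it at 4 sites, 0.491%. By library, 2.34% and 2.55% of segment peaks had an element in siCtrl and 0.455% and 0.830% in siCDK12, against 9.18%, 18.3%, 5.88% and 2.30% on the rest. The mean difference was -7.37 percentage points (two-sided exact sign-flip permutation test, p = 0.125). Against all other chromosomes it was -1.03 points, so its size rested on the rest of chromosome 17. It was -4.58 points without siCtrl replicate 3, and -30.7 and -41.3 at a -log10 q of 3 or more and of 5 or more. Of the 12 element sites, 8 had a peak in 1 library, 3 were the lost sites printed above and 1 was the TEX14 site.

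Among segment sites with a background of at most 3 times the floor, 1.56% had an element, against 5.16% on the rest of the chromosome and 1.79% of all such sites. Other motifs, searched on both strands, were near their frequency in the windows 1000 bp away or below it. AP-1 was found at 5.40% of segment sites against 5.89% of control windows, a FOXA motif (TGTTTAC) at 1.35% against 1.96%, and a GATA motif (AGATAA) at 5.28% against 14.5%. On the rest of chromosome 17 they were found at 5.81%, 1.94% and 9.20% of sites, with GATA in 12.1% of the control windows there. Over all sites GATA was found at 7.27% against 15.2% of control windows, so a lower share at summits was not particular to the segment.

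By position, 578 of the 815 sites (70.9%) lay in introns, 38 in exons and 199 between genes, and 3 of all sites lay within 1 kb of the start of a coding gene. On the rest of the chromosome 56.2% were intronic. The median distance to the start of a coding gene was 57.7 kb, against 32.96 kb. The genes with most sites were BCAS3 with 105, BRIP1 with 73 and USP32 with 49 inside the gene. On the rest of the chromosome no gene held more than 5, the count at SKAP1.

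Of a list of 25 candidate genes of the amplicon, 19 had a site in the gene or within 10 kb of it, and together they held 396 gene-site pairs. Of these genes, 14 had a site in 2 or more libraries, 8 a lost site, 5 a gained site and 1, BRIP1, an all-library site. Most of their sites lay in bins 9 to 12, where 33.1% of all sites recurred and 5.12% were lost. Whether the counts at these genes differ from those of other sites at that position was not tested. BRIP1 had 78 sites, or 38.2 per 100 kb, with 8 lost, 1 gained and 8 in all libraries, at a median background of 25.2 times the floor. BCAS3, named for its amplification in breast carcinoma, had 105 sites, 14.3 per 100 kb, of which 5 were lost and none gained. By library it had 48 and 37 in siCtrl and 20 and 31 in siCDK12. INTS2, a subunit of the Integrator complex, had 25 sites with 4 lost and 1 gained. USP32, a deubiquitinase gene, had 54 with 3 lost and 2 gained, in 17 and 12 cases in siCtrl and 18 and 21 in siCDK12.

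TRIM37, a ubiquitin ligase gene, had 26 sites with 1 lost and 2 gained. RPS6KB1, the gene of the S6 kinase, had 12 sites, none lost or gained, and PPM1D, the gene of a phosphatase that restrains p53 signaling, also had 12, none lost or gained. RAD51C, a homologous recombination gene, had 5 sites, each in 1 library. VMP1, an autophagy gene, had 7. No site lay at TBX2, CLTC, PTRH2, MIR21, KPNA2 or ABCC3. TBX4, the gene of a limb transcription factor, had 13 sites at 21.9 times the floor. MED13, a subunit of the Mediator kinase module, had 2 sites.

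In a second list of 20 signaling and transcription genes spread over the segment, 8 genes had a site and none had a site in 2 or more libraries, a lost site or a gained site. The 31 sites were led by BPTF, a chromatin remodeler subunit, with 8, and MSI2, an RNA-binding protein gene, with 7. Median backgrounds at these 8 genes lay between 1.11 and 1.80 times the floor. Of all segment sites with a background of at most 3 times the floor, 1.25% recurred. No site lay at TOB1 itself, NME1, HLF, RNF43, AXIN2 or DDX5.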

How the data were processed

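ER ChIP-seq of LY2 cells was analysed from peak lists of 2 siCtrl and 2 siCDK12 libraries. Per the study's methods and processing notes, the authors aligned reads to GRCh38 with BWA and called peaks in each library with MACS2. The deposited fold is the ratio of pileup to local background at the summit. For significance, the deposited columns give the p-value and the q-value as -log10. The score in the deposited lists equals 10 times the -log10 p-value, cut to a whole number. The deposited summit offset is a distance in bp from the peak's start. No value is normalized between libraries. The lists extend beyond a q-value of 0.05, and 12021, 4955, 4819 and 5224 peaks under it (-log10 q above 1.301) were used, of 15106, 6888, 6633 and 7207 deposited on chromosomes 1 to 22, X and Y. Read numbers are not part of peak lists, so depth is known only through the floor.

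Pileup and background were solved from fold and p-value, which matched a whole pileup for 100% of peaks to within 0.005 of the -log10 p-value. The solving of pileup and background, the merging of peaks, the presence patterns, the element search and the permutation tests were tested on simulated data. The floor, the other motif searches and the gene assignment were not. Libraries were compared with two-sided exact sign-flip (16 patterns) and permutation tests (6 assignments), and shares carry exact Clopper-Pearson 95% intervals. Genes were those of GENCODE release 44 and sequences came from the GRCh38 reference, of which 1 is not reported here. Named genes were 2 lists of 25 and 20 genes, and the nearest genes of lost, gained, recurrent (3 or 4 libraries) and the 10 highest ranked sites. The segment and the lists were chosen with earlier results of these data known. Alternatives were all deposited peaks, stricter limits of 3 and 5 on the -log10 q, a fold of at least 5, 55 to 65 Mb, other comparison regions, summit windows, the mean background, other motif settings and each library left out. Tests ran in SciPy 1.17.1 with numpy 2.4.6 and pandas 2.3.3 under Python 3.11.15, and plots were drawn with matplotlib 3.10.9.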

Additional observations from a re-analysis of the deposited data

How the results depend on the processing

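Of 116 values recomputed under an alternative, 90 kept their direction or stayed near the main count, 19 moved and 7 changed sign. With so few libraries no test could pass the significance threshold under any setting. Keeping their side of it was therefore fixed in advance for the tests, and is no measure of stability. The 90 also include the element difference without a mismatch, which was -0.00 points. The density, background and fold ratios and the element difference kept their direction under every alternative run for them, but not their size. At a fold of at least 5 the log2 density ratio fell to 0.69, the log2 background ratio to 0.23 (exact permutation test, p = 0.625) and the log2 fold ratio was -0.17. Without 58 to 62 Mb they were 1.55, 0.46 and -0.09. The element difference was -0.00 points without a mismatch (exact permutation test, p = 1). Stricter peaks left fewer sites to count. At a -log10 q of at least 3, 7 sites were gained and the difference in recurrent sites between the segment and the rest of chromosome 17 was -13.7 points. At a -log10 q of at least 5, 18 were lost, 5 gained and that difference was -40.0. At a fold of at least 5, 4 were lost, 0 gained, that difference was -17.3, and the siCDK12 minus siCtrl differences were -2.00 points in share and -0.33 in log2 background ratio. From 55 to 65 Mb the difference in recurrent sites was 21.4.

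Restrictions chosen after seeing the data were the segment without 58 to 62 Mb (4 lost, 0 gained, difference -2.38) and a background of at most 3 times the floor (0 lost, 0 gained, difference -3.87). Of the 183 segment sites with a peak in 2 or more libraries, 15 lay outside 58 to 62 Mb and 4 had a background of at most 3 times the floor. The cause of the changes under any alternative was not tested. With a library left out, a condition rests on 1 library. Lost sites then ranged from 44 to 277, highest without siCtrl replicate 3, gained sites from 22 to 151, highest without siCDK12 replicate 3, and the difference in recurrent sites from 10.6 to 15.7, lowest without siCDK12 replicate 4. No paired analysis was possible because siCtrl and siCDK12 had a single replicate number, 3, in common. Peak lists limit the depth of these results, since a missing peak is not absence of binding.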
